A study of Capra hircus with 29 samples.

Results

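Gene expression was compared between oocytes from medium follicles (LMO) and oocytes from small follicles (LSO) of the low fertility population of Ji'ning grey goats, with 5 samples in each group and 10 of the 29 oocyte samples of the study. Genes above 0.5 FPKM (fragment counts scaled to exon length and to the mapped fragments of the sample) in at least 4 of these 10 samples were kept, which gave 8477 of the 21343 genes listed. Of these, 5588 were above 0.5 FPKM in all 10 samples, and 5345 of the listed genes were at 0 in all 10. The study sequenced oocytes of 3 follicle sizes in each of 2 populations that differ in litter size. The submitters' labels give fewer than 2 kids per birth for the low fertility population and the study's methods give 2 or fewer. Medium follicles measured 3 to 7 mm and small follicles less than 3 mm. The low fertility population had 15 goats, and each sample held 2 to 3 oocytes. The methods state the pooling of oocytes by stage for the high fertility group only, and no record ties a sample to its goats, so the 5 samples of a group may share animals and the p-values measure the spread between these samples. The labels name total RNA and the methods name polyadenylated RNA. No treatment was given, and both groups come from 1 breed.

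As background, a growing oocyte transcribes and stores the messenger RNA, proteins and organelles that the egg and early embryo will use, and its transcription falls as it nears full size inside the antral follicle. It secretes GDF9 and BMP15, growth factors that act on the surrounding granulosa cells, and it builds the zona pellucida, the glycoprotein coat that sperm must cross. Granulosa cells answer through gap junctions, KIT ligand and Notch signalling, and cyclic AMP holds the oocyte in meiotic arrest until ovulation.

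The 10 samples carried the RNA of oocytes. ZP3 lay between 521 and 2917 FPKM, BMP15 between 96.4 and 306 FPKM and GDF9 between 31.9 and 696 FPKM. Of 20 granulosa and cumulus markers, AMH, AMHR2 and HSD17B1 were listed at 0 in all 10 samples, and the summed level of the list ranged from 6.65 to 53.6 FPKM in LMO and from 8.19 to 51.0 FPKM in LSO. None of 14 leukocyte markers passed the filter, with a sum of 0.255 to 1.03 FPKM in LMO and 0.138 to 5.13 FPKM in LSO. The 12 theca and stroma markers summed to 49.6 to 70.6 FPKM in LMO and to 15.2 to 60.8 FPKM in LSO. STAR, MGP, DCN and COL1A2 made up most of that sum, while INSL3 and PDGFRA were listed at 0 throughout. Of the list's 5 tested genes 4 were higher in LMO, beside 3847 of all 8477 genes tested. COL1A2, higher in LMO, had a limma unadjusted p of 0.0403, and the part of such RNA in the results was not tested. The summed FPKM of LMO 2 was 222697, against 350806 to 440665 in the other 9 samples. In bulk RNA, fewer cells of a type and less RNA per cell cannot be told apart.

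Oocytes of medium and of small follicles did not form separate groups. The first principal component of log2(FPKM + 1), which held 49.1% of the variance, had a mean of 0.585 ± 53.5 (SD, n = 5) in LMO and -0.585 ± 47.4 (SD, n = 5) in LSO (exact permutation test, two-sided, p = 0.960, Benjamini-Hochberg adjusted over 2 measures 0.960). LMO 1, 4 and 5 lay on one side with LSO 4 and 5, and LMO 2 and 3 on the other with LSO 1, 2 and 3. The difference between the group means took up 7.69% of the sum of squares over genes and samples. Spearman's rho over the genes tested averaged 0.847 between samples of LMO, 0.839 between samples of LSO and 0.848 between samples of different groups, and the most similar sample came from the same group for 2 of the 10 samples. A mean of 7826 ± 555 genes (SD, n = 5) exceeded 0.5 FPKM in LMO and 8049 ± 535 (SD, n = 5) in LSO (exact permutation test, two-sided, p = 0.5, adjusted 0.960).

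**Figure D1:**
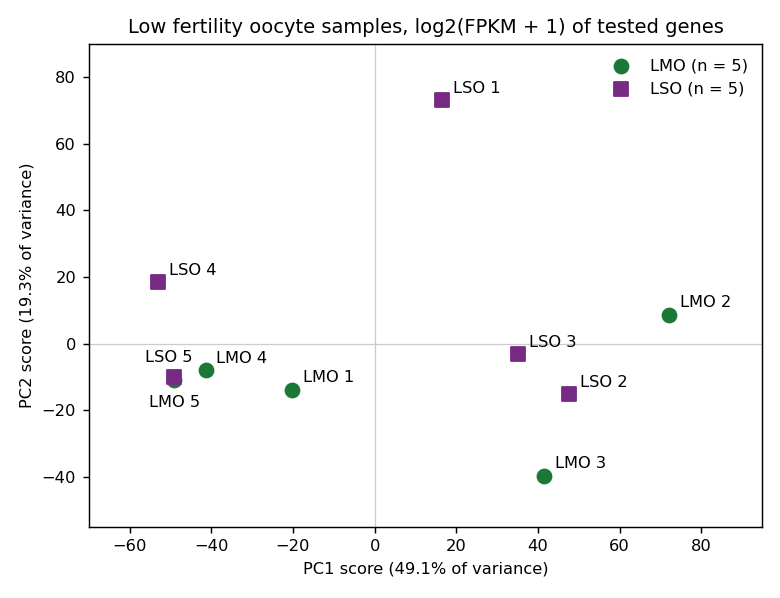
Scores of the 10 low fertility oocyte samples on the first 2 principal components of log2(FPKM + 1), with LMO as circles and LSO as squares (arbitrary score units, the share of the variance on each axis). Both groups are spread along PC1, and LMO 5 and LSO 5 lie on top of each other.

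LMO 5 and LSO 5, which carry different follicle labels, were the most alike of all 45 pairs. Their rho was 0.984, the standard deviation of their log2 difference was 0.256, and 0.708% of genes differed by over 1 on the log2 scale. The next closest pair, LMO 4 and LSO 5, had a standard deviation of 0.444. Among the 29 oocyte samples of the study, each was again the nearest to the other. Genes that were low elsewhere were shared by this pair. TNFAIP6, a hyaluronan-binding protein of the expanding cumulus, was at 16.6 FPKM in LMO 5 and 18.2 FPKM in LSO 5 and at most 0.215 FPKM in the other 8 samples. INHBA, the activin subunit, was at 5.21 and 4.84 FPKM in the pair and at most 0.840 FPKM elsewhere. No pair of samples held identical values (0 pairs), so both were kept, and the counts of genes are also given without both.

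The oocyte's own growth factors and coat proteins overlapped between the groups, with wide intervals. GDF9 was at 284, 31.9, 130, 513 and 463 FPKM in LMO 1 to 5 and at 268, 86.9, 189, 696 and 525 FPKM in LSO 1 to 5. LMO 2 was the lowest of all and the groups overlapped over nearly their whole range. The log2 fold change, LMO minus LSO on the log2(FPKM + 1) scale as throughout, was -0.50 (standard error 0.77, 95% interval -2.16 to 1.16). BMP15 was at 174, 306, 118, 220 and 179 FPKM in LMO and at 216, 182, 96.4, 191 and 188 FPKM in LSO, a difference of 0.17 (standard error 0.37, interval -0.63 to 0.97). ZP2 averaged 237 ± 64.4 FPKM (SD, n = 5) in LMO and 309 ± 113 FPKM (SD, n = 5) in LSO, ZP3 1556 ± 628 and 1727 ± 949 FPKM, and ZP4 443 ± 188 and 476 ± 257 FPKM. The 3 zona genes differed by -0.35, -0.09 and -0.03. Of the 8 tested genes of the zona and sperm-egg fusion list, 0 had an unadjusted p under 0.05, and their median difference was -0.11 beside -0.03 over all genes tested.

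Receptors and ligands of the dialogue with granulosa cells also overlapped. KIT, the oocyte's receptor for KIT ligand, was at 6.98 ± 1.82 FPKM (SD, n = 5) in LMO and 7.29 ± 3.23 FPKM (SD, n = 5) in LSO, a difference of -0.01 with an interval of -0.75 to 0.74. Of 20 tested growth factor, receptor and SMAD genes, 13 were higher in LMO and 7 in LSO, and 0 had an unadjusted p under 0.05. Over all genes tested, 3847 were higher in LMO and 4630 in LSO. SMAD4, the shared partner of the receptor-regulated SMADs, differed by 0.32 (limma, unadjusted p = 0.10). Among the 12 tested Notch genes, JAG1, the ligand, was at 20.3, 55.7, 22.0, 24.8 and 21.2 FPKM in LMO and 39.8, 29.8, 26.5, 17.9 and 20.1 FPKM in LSO. HES1, a Notch target, was at 39.8, 267, 65.6, 85.3 and 52.8 FPKM in LMO and at 140, 84.9, 57.9, 36.0 and 57.9 FPKM in LSO. Both were highest in LMO 2 and second highest in LSO 1, and neither difference (0.04 for JAG1 and 0.22 for HES1) exceeded its standard error (0.39 and 0.53). The Notch ligands JAG2 and DLL3 did not pass the filter. JAG2 was at 0.0259 to 2.65 FPKM, and DLL3 was listed at 0 in all 5 LMO samples and in LSO 4 and 5, and at 0.669, 0.516 and 0.717 FPKM in LSO 1, 2 and 3. The connexins GJA4 and GJC1 differed by 0.18 (interval -0.46 to 0.82) and -0.04 (interval -0.81 to 0.74), and ID3, a target of BMP signalling, by 0.21 (interval -0.83 to 1.25).

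**Figure D2:**
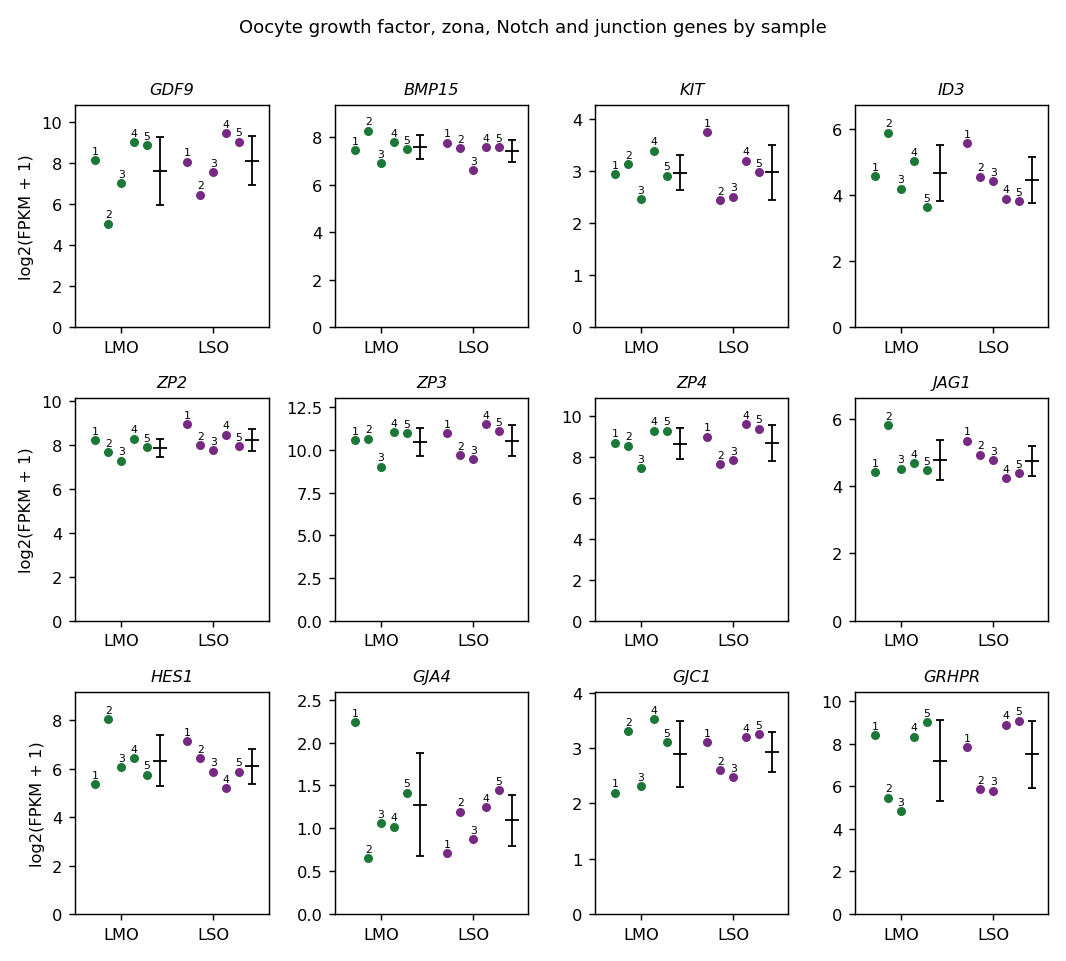
Level of 12 oocyte, zona, Notch and junction genes as log2(FPKM + 1) in each sample, numbered by replicate, for LMO (green) and LSO (purple), with the mean and SD (n = 5) as bars. The groups overlap in all 12 panels.

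Oocyte genes named by the study or by earlier results gave similar intervals. GRHPR, an enzyme of glyoxylate metabolism, ranged from 27.7 to 523 FPKM in LMO and from 54.7 to 548 FPKM in LSO (difference -0.29, interval -2.29 to 1.71). GPR84, a receptor for medium-chain fatty acids, differed by 0.33 (interval -1.16 to 1.83), CYB5A, cytochrome b5, by -0.04 (interval -1.33 to 1.25) and ERAL1, a chaperone of mitochondrial ribosomal RNA, by 0.58 (interval -0.48 to 1.64). Across all genes the median standard error was 0.37 and the 95% interval reached a median of 0.80 to either side, so that for 4025 genes (47.5%) the interval lay wholly within 1 of zero. The most abundant genes were FTL, DYNLL1, FAU, LOC102172558 and LOC102173562. FTL, the ferritin light chain, was at 22015, 1536, 10793, 17401 and 20196 FPKM in LMO and at 6632, 5322, 6319, 18301 and 19633 FPKM in LSO. The other 4 differed by -0.60 to -0.10, and all 5 symbols are shared with other genes, so their values are uncertain.

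After adjustment over the 8477 genes tested, 0 genes (0%) had a limma Benjamini-Hochberg adjusted p under 0.05, and the smallest was 0.999. An unadjusted p under 0.05 was found for 198 genes (2.34%), 38 higher in LMO (0.448%) and 160 higher in LSO (1.89%). With no difference a p under 0.05 has a probability of 0.05, and the share of 2.34% was lower, so these counts show no excess. By an exact Wilcoxon test, 88 genes reached an unadjusted p under 0.05 and adjustment left 0. With 5 samples per group this test cannot give a p under 0.00794. A small number of genes at that p cannot pass adjustment over 8477 genes, so its 0 says nothing about a difference. With a further limit of 1 on the log2 fold change, limma gave 14 genes higher in LMO (0.165%) and 97 in LSO (1.14%), 111 in all (1.31%). Of the 97, 18 were over 0.5 FPKM in at most 1 LMO sample, 4 of them in no LMO sample, and of the 14, 1 was over it in at most 1 LSO sample. Such genes passed the filter through the group where they were high, which fixes their direction. These counts moved with single libraries. Without LSO 1, LSO 3 or LSO 4 they were 3 and 31, 10 and 63, and 9 and 46. Without LSO 2 or LSO 5 they were 33 and 187, and 59 and 153. Without LMO 1, 2, 3 or 4 they were 8 and 105, 35 and 74, 28 and 84, and 8 and 78. Without both LMO 5 and LSO 5 they were 37 and 151. With limma's array weights the split was 67 and 82, so that 45.0% of the genes were higher in LMO instead of 12.6%.

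Among genes higher in LSO by over 1 on the log2 scale, those with the smallest unadjusted p included LSM6, TOR1AIP1, EPHA6 and TERB2. All but TERB2 share their symbol with other genes, so their values are uncertain. LSM6, EPHA6 and TERB2 were each over 0.5 FPKM in 0 LMO and 4 LSO samples, so they were tested because of the group in which they were high, and their p is no support for a difference. LSM6 (ENSCHIG00000012864), 1 of 3 genes with the symbol of a subunit of the Lsm ring that acts in splicing and mRNA decay, was listed at 0 in all 5 LMO samples and in LSO 5, and at 6.07, 2.61, 3.03 and 5.79 FPKM in LSO 1 to 4. Its limma adjusted p was 0.00579 without LSO 5 and 0.0412 without both LMO 5 and LSO 5, and 0.641 to 1 in the 15 other fits that tested it. With LMO at 0 throughout, leaving out LSO 5 sets samples at 0 against samples above 0 by construction, and without LSO 1, 2, 3 or 4 the gene did not pass the filter. The most abundant gene of the same symbol was at 18.04 to 126 FPKM in LMO and 72.3 to 189 FPKM in LSO, a difference of -0.52 (standard error 0.54).

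TOR1AIP1 (ENSCHIG00000009486), an inner nuclear membrane protein that activates torsin ATPases, was at 0.579, 0.685, 0.766, 1.01 and 0.932 FPKM in LMO and at 8.40, 1.58, 6.27, 7.65 and 1.63 FPKM in LSO. All 5 LSO samples lay above all 5 LMO samples, with LSO 2 and 5 close to the LMO range. The difference was -1.56 (standard error 0.39, limma unadjusted p = 0.00170, adjusted 0.999). DESI1 (ENSCHIG00000017498), an isopeptidase that removes SUMO, was at 0.391 to 0.859 FPKM in LMO and at 11.5, 0.901, 1.90, 2.12 and 1.37 FPKM in LSO, again without overlap. Its difference of -1.13 (standard error 0.42) was -0.67 without LSO 1.

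TERB2 (ENSCHIG00000012900), which anchors telomeres to the nuclear envelope in meiotic prophase, was at most 0.152 FPKM in LMO and at 7.57, 0.572, 5.77, 3.46 and 0.0769 FPKM in LSO. EPHA6 (ENSCHIG00000022528), an ephrin receptor, was at most 0.206 FPKM in LMO and at 2.04, 0.795, 2.35, 4.45 and 0.151 FPKM in LSO. In both genes LSO 5 lay within the LMO range and LSO 1, 3 and 4 were the highest samples. The differences were -1.65 and -1.23.

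Of the 14 genes higher in LMO past both limits, LOC102170866 (ENSCHIG00000013558), annotated as GTPase IMAP family member 4, had the largest difference and the smallest p. It was at 112, 71.1, 5.70, 79.5 and 33.6 FPKM in LMO and at 0.598, 4.58, 0.404, 0.728 and 32.1 FPKM in LSO. Without LSO 5 the groups would not overlap. The difference was 3.54 (standard error 0.93, limma unadjusted p = 0.00231, adjusted 0.999). The symbol is shared by 2 genes.

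PAG12, a member of the pregnancy-associated glycoproteins, an aspartic protease family of the ruminant placenta, was at 1.85, 1.97, 0.835, 2.32 and 2.03 FPKM in LMO and at 0.0281, 0.0246, 0.0516, 0.338 and 2.21 FPKM in LSO, a difference of 1.01 (standard error 0.32). It was over 0.5 FPKM in 5 LMO samples and 1 LSO sample, and passed the filter through LMO. SPIC, an ETS family transcription factor whose symbol is shared by 3 genes, was at 5.84, 3.82, 8.88, 16.2 and 5.23 FPKM in LMO and at 1.01, 2.04, 2.37, 3.16 and 5.38 FPKM in LSO, a difference of 1.20 (standard error 0.41). In both genes LSO 5 was inside the LMO range and the other 4 LSO samples were below it. STBD1, a glycogen-binding protein, averaged 6.05 ± 3.82 FPKM (SD, n = 5) in LMO and 1.95 ± 1.43 FPKM in LSO. PPM1N, a protein phosphatase, averaged 71.8 ± 16.4 FPKM (SD, n = 5) in LMO and 33.6 ± 20.4 FPKM in LSO, with differences of 1.28 and 1.30.

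**Figure D3:**
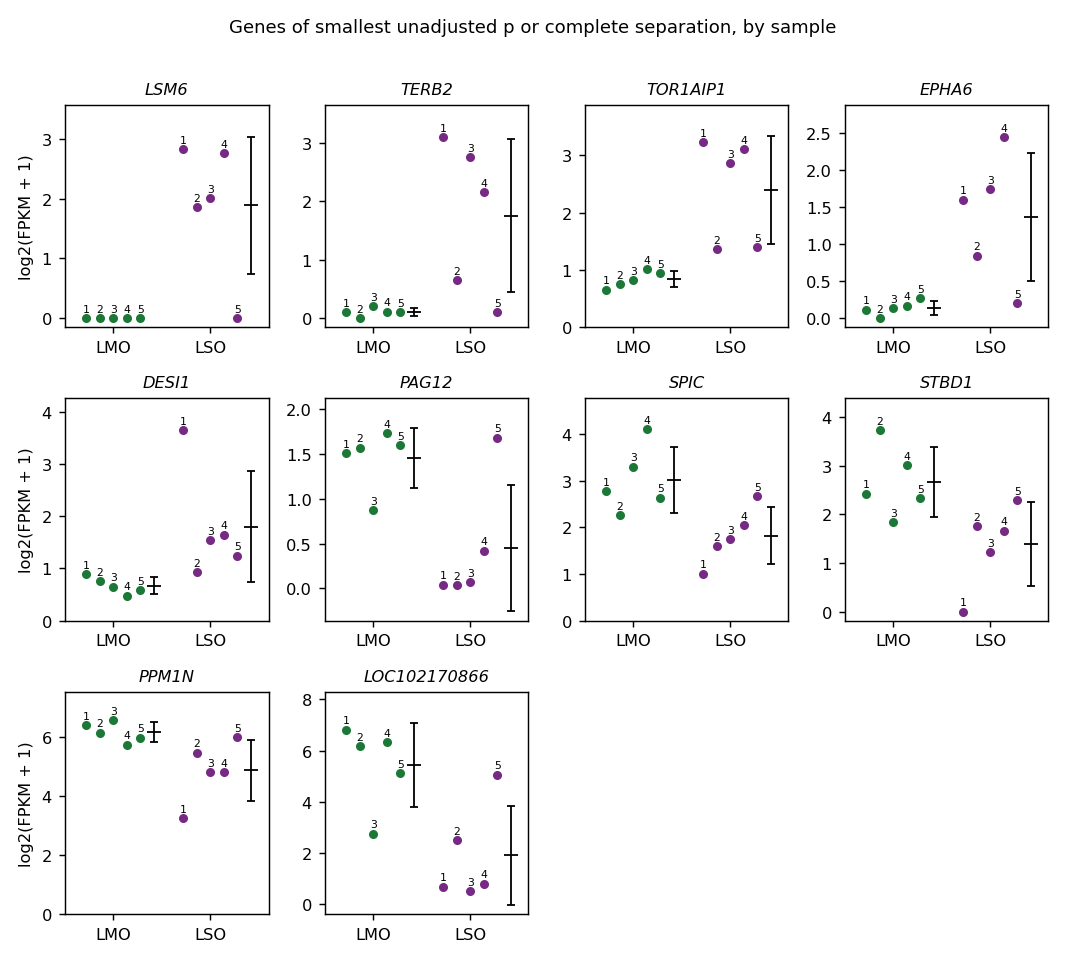
Level of 10 genes as log2(FPKM + 1) in each sample, numbered by replicate, for LMO (green) and LSO (purple), with the mean and SD (n = 5) as bars where a group was not at 0 throughout. In the 5 genes higher in LSO, replicate 5 of LSO lies within or near the LMO values, and in the 5 genes higher in LMO it lies among them.

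Complete separation of the 5 LMO from the 5 LSO samples was found for 7 of the 8477 genes (0.0826%). With no difference, a gene without ties separates with a probability of 0.00794, the smallest p of the exact Wilcoxon test. The share found was lower, so separation is no support for a difference in these genes. Higher in LSO were 5 genes (0.0590%), TOR1AIP1, DESI1, C14H8orf33, HIST1H2AC and VPS37B, and higher in LMO 2 genes (0.0236%), LOC102176109 and LMCD1. C14H8orf33 was over 0.5 FPKM in 1 LMO and 5 LSO samples, LOC102176109 in 4 and 0, and LMCD1 in 5 and 1. These genes, among them both that were higher in LMO, passed the filter through the group where they were high. HIST1H2AC, a replication-dependent histone H2A, was at 1.52, 1.23, 1.35, 1.41 and 0.648 FPKM in LMO and at 5.78, 3.18, 1.54, 1.65 and 2.19 FPKM in LSO. LMCD1, a LIM domain protein, was at 0.550 to 1.03 FPKM in LMO and at 0.228 to 0.549 FPKM in LSO. Its groups almost met, close to the filter limit of 0.5 FPKM. The limma unadjusted p was 0.0677 for LMCD1 and 0.0629 for VPS37B, so neither was under 0.05. Without 1 sample the count rose to 99 (without LSO 5), 80 (without LSO 2), 43 (without LMO 2), 34 (without LMO 3), 30 (without LMO 1), 20 (without LMO 4), 14 (without LMO 5) and 12 (without LSO 3), and without both LMO 5 and LSO 5 to 106, where fewer samples have to be apart. It was 9 without LSO 1 and 8 without LSO 4.

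The 97 genes higher in LSO were high in 3 of its 5 samples. In 79 of them (81.4%), LSO 1, 3 and 4 were the 3 highest of the 10 samples. LSO 1 lay above all LMO samples in 95 of the 97 genes, LSO 3 in 88, LSO 4 in 91, LSO 2 in 25 and LSO 5 in 21. Their median level was 22.6, 2.61, 12.4, 14.8 and 1.72 FPKM in LSO 1 to 5 and 1.99, 0.917, 1.09, 1.32 and 1.66 FPKM in LMO 1 to 5. LSO 2 and LSO 5 were thus near the LMO samples for most of these genes. The 14 genes higher in LMO lay below all LMO samples in LSO 1 for 14 genes, in LSO 4 for 13, in LSO 3 for 9, in LSO 2 for 8 and in LSO 5 for 3. Since these genes were chosen by the same comparison, the counts are a description.

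**Figure D4:**
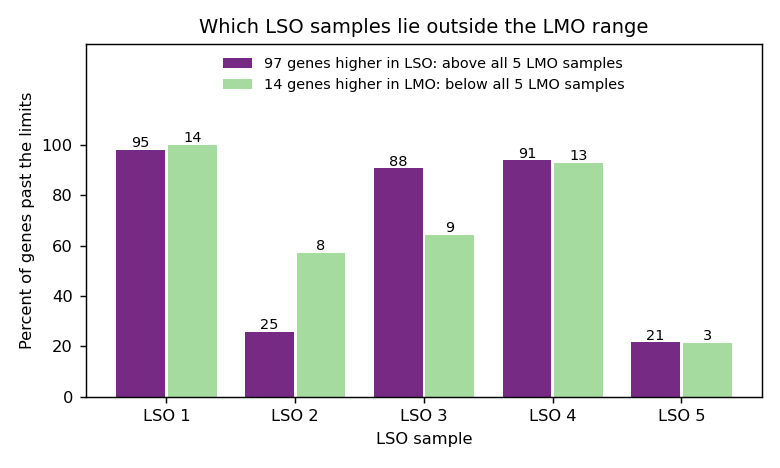
Share (percent) of the 97 genes higher in LSO that lay above all 5 LMO samples (purple) and of the 14 genes higher in LMO that lay below all 5 LMO samples (green), for each LSO sample, with gene numbers over the bars. LSO 1, 3 and 4 carry 88 to 95 of the 97 genes, and LSO 2 and 5 carry 25 and 21.

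Genes with large differences, chosen after their values were seen, followed the same samples. LOC102180215, annotated as small integral membrane protein 8-like, was at 0 to 4.26 FPKM in LMO and at 343, 2.69, 229, 143 and 1.22 FPKM in LSO, a difference of -3.74 (standard error 1.30). DPP4, a cell surface dipeptidyl peptidase, was at 9.19, 0.693, 6.07, 5.62 and 5.41 FPKM in LMO and at 67.4, 8.39, 98.6, 30.3 and 5.64 FPKM in LSO.

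Transcriptional regulators were among the 97 genes as well, also named after their values were seen. NR1H3, the oxysterol receptor LXR alpha, was at 3.21 to 9.83 FPKM in LMO and at 87.7, 10.1, 80.2, 36.5 and 2.82 FPKM in LSO, a difference of -1.97 (standard error 0.76). MYF5, a myogenic transcription factor, was at 3.57 to 7.15 FPKM in LMO and at 45.2, 4.90, 33.4, 55.7 and 7.11 FPKM in LSO, a difference of -1.89 (standard error 0.61). ATF6, a sensor of endoplasmic reticulum stress, was at 0.203 to 1.33 FPKM in LMO and at 6.01, 0.617, 4.41, 9.72 and 1.22 FPKM in LSO. In all 3 genes, LSO 2 and LSO 5 were within or just outside the LMO range.

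Genes of the set given by name included some with a smaller unadjusted p or an uneven distribution. TLR3, a receptor for double-stranded RNA, was at 0.131 to 0.451 FPKM in LMO and at 2.04, 0.507, 2.14, 2.86 and 0.252 FPKM in LSO, a difference of -0.83 (limma unadjusted p = 0.0150). It too was over 0.5 FPKM in 0 LMO and 4 LSO samples, so that it was tested because of the group where it was high. HSD17B2, which oxidises estradiol to estrone, did not pass the filter, since it was above 0.5 FPKM in 3 samples. It was at 0.0260 to 0.101 FPKM in LMO and at 18.5, 0.0489, 7.44, 17.99 and 0.0754 FPKM in LSO. PLEKHA3, a phosphoinositide-binding protein of the Golgi, was at 6.40, 13.4, 7.19, 15.9 and 10.3 FPKM in LMO and at 2.92, 2.19, 7.12, 2.66 and 11.03 FPKM in LSO, a difference of 1.04 (limma unadjusted p = 0.0315). FABP1, a fatty acid binding protein, was at 0.867 and 1.14 FPKM in LSO 1 and 4 and at 0.223 FPKM in LMO 5, and was listed at 0 in the other 7.

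Since DPP4 and GUCA2B are also known from the intestinal epithelium, enterocyte markers were looked up after the data were seen, of which 22 genes were listed and 8 tested. Their summed level ranged from 10.2 to 26.0 FPKM in LMO and from 21.4 FPKM (LSO 5) to 123 FPKM (LSO 3) in LSO, with LSO 1 at 96.6 FPKM. DPP4 and GUCA2B, which prompted the list, made up 90.04 FPKM of the sum in LSO 1 and 113 FPKM in LSO 3. The other 20 listed markers summed to 9.46 to 15.02 FPKM in LMO and to 6.61 to 16.1 FPKM in LSO. DPP4, GUCA2B and EPCAM were higher in LSO, OLFM4 was higher in LMO, all 4 at an unadjusted p under 0.05. The defining markers SI, FABP2, APOA1 and APOA4 were listed at 0 in all 10 samples and VIL1 reached 0.0282 FPKM at most. The part of other cells' RNA in the LSO pattern was not tested.

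Many of the genes past the limits shared their symbol with other genes. Of the 97 higher in LSO, 42 (43.3%) did, and of the 14 higher in LMO 4 (28.6%), beside 1238 of all 8477 genes (14.6%). The 46 genes carried 41 symbols, and for 30 of these symbols the most abundant gene of the same symbol was not past the limits. Of those most abundant genes, 15 were higher in LSO, POLR2K's by -0.89 among them, and 14 in LMO. That of LOC102177976 did not pass the filter. It was at 7.34, 0.118, 2.70, 31.8 and 0.216 FPKM in LSO 1 to 5 and at most 0.165 FPKM in LMO. RPS15A, a small ribosomal subunit protein, is an example of a symbol whose most abundant gene was not past the limits. Of its 8 genes 4 were past the limits, the largest difference being that of a gene at 0.354, 0, 0.557, 0.202 and 0.187 FPKM in LMO and 68.7, 0.201, 50.0, 29.1 and 0 FPKM in LSO. The most abundant RPS15A gene was at 629, 451, 1015, 506 and 513 FPKM in LMO and at 412, 1093, 850, 414 and 475 FPKM in LSO, a difference of -0.00 (standard error 0.38). ATP5G2, a subunit of the mitochondrial ATP synthase, was at 0.172 to 1.77 FPKM in LMO and at 48.4, 1.27, 15.1, 44.2 and 1.45 FPKM in LSO in the gene past the limits. The most abundant gene of that symbol was at 41.4 to 106 FPKM in LMO and at 23.9, 43.6, 31.5, 64.0 and 101 FPKM in LSO, a difference of 0.70 in the other direction. How the authors' counting divided reads between such genes was not tested, and their values are uncertain.

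Gene groups of the oocyte were described by the number of members past an unadjusted p of 0.05, beside 0.448% of all genes higher in LMO and 1.89% higher in LSO. For the counts of direction alone given below, 3847 of all genes tested were higher in LMO and 4630 in LSO. Cytosolic ribosomal protein genes had the most, with 13 of 135 tested genes higher in LSO and 0 in LMO, and a median difference of -0.19 beside -0.03 over all genes. Among them were RPS15A with 4 genes, RPS6 and RPLP1 with 2 each, and RPS10, RPL19, RPL7 and RPS3A, and all of these symbols are shared by several genes. Of 76 nuclear-encoded respiratory chain and ATP synthase genes, 3 were higher in LSO (ATP5G2, NDUFA3 and NDUFB6), and the median was -0.21. NDUFB6, a subunit of complex I with a symbol of its own, was at 173, 56.6, 113, 162 and 150 FPKM in LMO and at 345, 172, 365, 297 and 160 FPKM in LSO. Of 70 mitochondrial ribosomal protein genes, 2 were higher in LSO, MRPL18 and MRPL30, with a median of -0.12. MRPL30 was at 8.46, 9.31, 33.3, 9.61 and 17.99 FPKM in LMO and at 162, 11.03, 118, 120 and 16.4 FPKM in LSO. Of the 13 mitochondrially encoded genes, 11 were higher in LMO and 0 had an unadjusted p under 0.05. They summed to 821, 761.6, 4611, 345 and 1743 FPKM in LMO and to 122, 376, 4209, 1267 and 1965 FPKM in LSO, so that replicate 3 was the highest sample of each group.

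Maternal-effect and maternal mRNA genes overlapped between the groups. The 10 tested genes of the subcortical maternal complex and other maternal-effect genes had a median of -0.33, 8 of them higher in LSO, and 0 had an unadjusted p under 0.05. ZAR1L, an oocyte RNA-binding protein, was at 81.8, 248, 110, 86.1 and 78.5 FPKM in LMO and at 398, 159, 213, 115 and 75.7 FPKM in LSO, a difference of -0.59 (standard error 0.49). NPM2, the histone chaperone that remodels sperm chromatin, differed by 0.02 (standard error 0.47). Of 25 genes of mRNA storage and polyadenylation, DAZL was higher in LMO and 1 of the 2 CPSF3 genes in LSO at an unadjusted p under 0.05. That CPSF3 gene was over 0.5 FPKM in 0 LMO and 4 LSO samples, so it was tested because of the group where it was high. The most abundant CPSF3 gene differed by -0.18 (standard error 0.26). DAZL, a germ cell translational regulator whose symbol is shared by 2 genes, was at 2.03, 0.826, 1.22, 3.74 and 2.40 FPKM in LMO and at 0.378, 0.424, 0.277, 0.234 and 2.63 FPKM in LSO, where LSO 5 lay inside the LMO range and the other 4 LSO samples below it. It passed the filter through LMO, with 1 LSO sample over 0.5 FPKM. Of 24 deadenylation and decay genes 0 had an unadjusted p under 0.05, and BTG4, the adapter that recruits the CCR4-NOT deadenylase to maternal mRNA, was at 1234, 173, 529, 1215 and 1418 FPKM in LMO and at 409, 389, 520, 1657 and 1462 FPKM in LSO.

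Of 29 genes of meiotic arrest and resumption, 2 were higher in LMO and 0 in LSO at an unadjusted p under 0.05. Both encode regulatory subunits of protein kinase A, which keeps the oocyte in arrest. PRKAR1A was at 5.09, 11.3, 4.30, 6.19 and 4.51 FPKM in LMO and at 1.17, 4.87, 2.59, 1.93 and 4.53 FPKM in LSO, a difference of 0.88 (standard error 0.37). PRKAR2A was at 6.56, 15.1, 10.04, 11.7 and 9.20 FPKM in LMO and at 2.62, 7.24, 5.51, 5.23 and 8.92 FPKM in LSO, a difference of 0.77 (standard error 0.36). For both genes the samples overlapped, LSO 1 was the lowest and LMO 2 the highest. CCNB1, the cyclin of maturation-promoting factor, differed by -0.21 (standard error 0.65), and MOS, the kinase that starts the MAPK cascade of the maturing oocyte, by -0.73 (standard error 1.16).

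In the other groups, 15 replication-dependent histone genes had the lowest median, -0.46, with 13 higher in LSO and HIST1H2AC alone at an unadjusted p under 0.05. Of 43 proteasome genes, PSMA8, the germ cell alpha subunit, was higher in LMO by 0.97 (12.8 ± 4.22 against 6.89 ± 4.74 FPKM, SD, n = 5). Of 65 chaperone genes, 3 were higher in LSO at an unadjusted p under 0.05. Among them were 1 of the 2 genes of HSPB1, a small heat shock protein, with a difference of -0.95, and 1 of the 4 HSPA8 genes with -1.07. Of 121 solute carriers, SLC52A3, a riboflavin transporter, was higher in LMO by 0.87, and of 25 antioxidant enzymes, GLRX, glutaredoxin, was higher in LSO with a difference of -1.45, in 1 of the 3 genes of that symbol. The lists of oocyte transcription factors, spindle and checkpoint, recombination and cohesin, DNA methylation, histone methylation, PI3K and mTOR signalling, glycolysis, apoptosis, gap junctions and immediate early genes had 0 members at an unadjusted p under 0.05 in limma, and 0 after adjustment. Medians of lists near 0 changed sign with the scaling, for example from -0.01 to 0.02 for the meiotic arrest list with median-of-ratios factors.

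**Figure D5:**
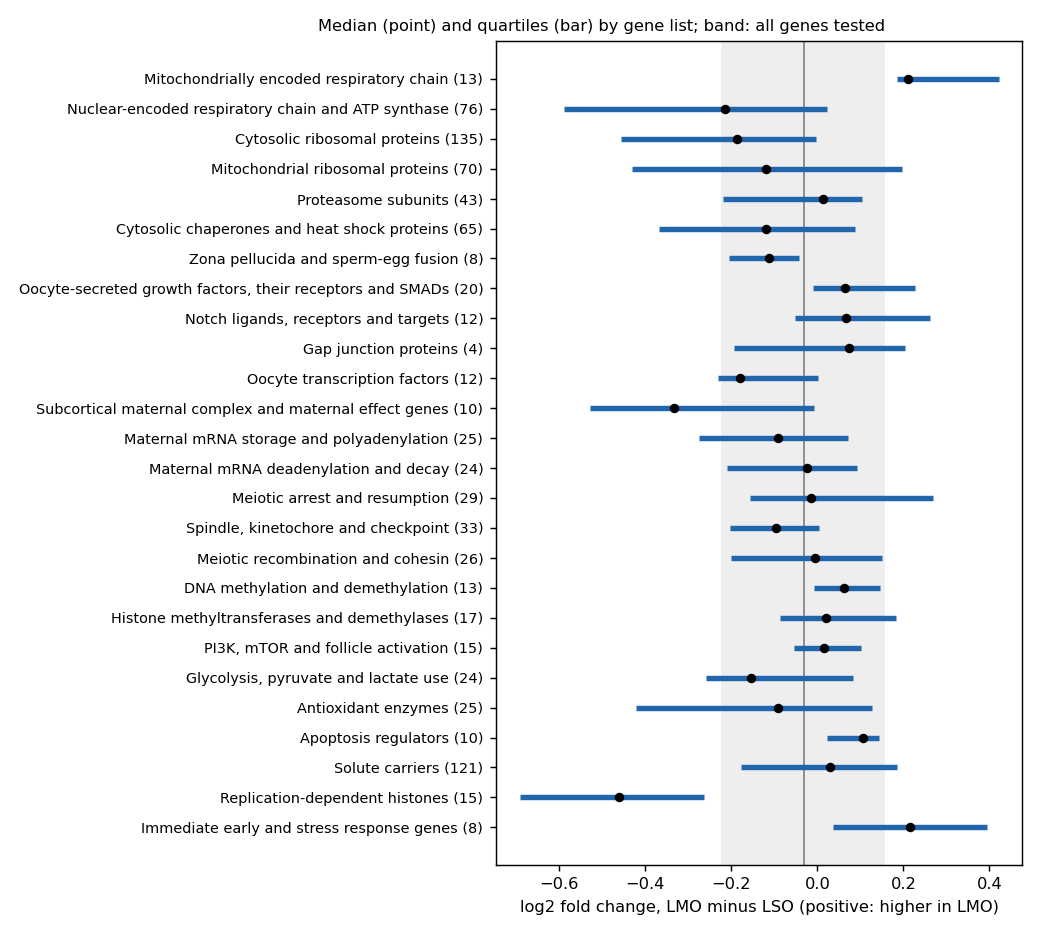
Median (point) and quartiles (bar) of the log2 fold change, LMO minus LSO, over the tested members of 26 gene lists (number in brackets), with the quartiles of all genes tested as a grey band and their median of -0.03 as a line. The medians run from -0.46 for replication-dependent histones to 0.22 for immediate early genes.

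The same genes were then read in the high fertility population, in samples that the choice had not used (HMO, medium follicles, n = 5, and HSO, small follicles, n = 4). Of the 97 genes higher in LSO than in LMO, 93 (95.9%) were lower in HSO than in HMO, beside 37.1% of all genes tested. Their median difference was 1.24, HMO minus HSO, against -1.48, LMO minus LSO. Of the 14 genes higher in LMO, 13 (92.9%) were lower in HMO than in HSO, beside 62.9% of all genes tested. The medium minus small difference thus had the opposite sign in the 2 populations for most of these genes. The median level of the 97 genes was 16.6, 1.39, 11.7, 10.4 and 13.1 FPKM in HMO 1 to 5. In HSO it was 1.84 to 2.09 FPKM. Genes that follow the same samples are not independent, so the count of 93 describes a shared pattern and not separate results. DPP4 was at 65.9, 11.003, 135, 77.8 and 43.9 FPKM in HMO 1 to 5 and at 6.64 to 8.89 FPKM in HSO. TOR1AIP1 was at 5.73, 1.30, 8.93, 2.63 and 4.85 FPKM in HMO and at 0.990 to 1.92 FPKM in HSO.

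Over all 29 samples, the median level of the 97 genes was 10.4 to 24.6 FPKM in 8 samples, which were LSO 1, 3 and 4, HMO 1, 3, 4 and 5, and LLO 4 from the large follicles of the low fertility population. In the other 21 it was 0.464 to 2.61 FPKM. The 97 genes were chosen as higher in LSO than in LMO, which fixes the places of these groups, while the samples of the other 4 groups were not used in the choice.

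The difference between the populations was tested as an interaction over 9232 genes. In limma 0 genes (0%) had a Benjamini-Hochberg adjusted p under 0.05, the smallest being 0.0852, and 811 genes (8.78%) had an unadjusted p under 0.05. The count after adjustment was 145 without HMO 2, 105 without LSO 2, 115 without LSO 5 and 28 without both LMO 5 and LSO 5. Leaving out any other single sample gave 0. HMO 2, LSO 2 and LSO 5 are samples of their groups in which the 97 genes were low. Of the genes named above, EPHA6 differed by -2.54 between the populations (standard error 0.49, limma adjusted p = 0.0963) and TOR1AIP1 by -2.69 (standard error 0.58) at the same adjusted p of 0.0963. Both were named for their difference between LMO and LSO, which is part of the interaction. Their p-values are therefore no support for it. GDF9 and BMP15 differed by -0.19 (standard error 1.09) and 0.55 (standard error 0.52).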

How the data were processed

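The authors deposited expression as FPKM, with genes in lines and oocyte samples in columns, made with Cufflinks from uniquely aligned, deduplicated reads and the Ensembl annotation. The genome build is not given in the sources used here, so no coordinates are printed. The table holds no read counts, so depth was not known from it and no counting interval is given. Sample titles identified the columns, and 1 further column fits no sample title and was left aside.

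LMO and LSO were compared by limma 3.58.1 with a trend in R 4.3.3 on log2(FPKM + 1), in the genes with over 0.5 FPKM in 4 or more of the 10 samples, with Benjamini-Hochberg adjustment over all genes tested. The study's methods name no test for this comparison. Fold changes on this scale understate the change of low genes. The limits were a log2 fold change of 1 and an unadjusted p of 0.05. The interaction with the high fertility population used 1 model of 4 groups. Sample scores were compared by exact permutation. The procedures were tested on simulated data.

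Named genes were up to 10 per direction with the largest difference past the limits and with complete separation, up to 5 per direction of smallest p and a difference beyond 1, up to 2 per direction in each list at p under 0.05, the 5 of highest mean FPKM, any gene past the adjusted threshold, and a set given by name. Some genes that these rules name are not reported here. Members and lists were chosen with earlier results of these data known, and the enterocyte list after its values were seen. Alternatives were other pseudocounts (0.1 and 0.5), other filters, quantile normalization, median-of-ratios factors, array weights, an exact Wilcoxon test, 1 model of 6 groups, a replicate block and each sample left out. Python 3.11.15 and matplotlib 3.10.9 drew the figures.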

Additional observations from a re-analysis of the deposited data

Results flagged for a closer look

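Single samples stood apart from the other 4 of their group by Dixon's ratio in 12 of 112 groups of values looked at. Chance gives about 1 in 20 for independent, normally distributed values. Many of these genes were chosen from the same data and follow the same samples, so the count cannot be set against that share. LMO 2 was the outlying sample in its summed FPKM (222697), in FTL (1536 FPKM, the lowest), in JAG1 (55.7 FPKM, the highest) and in JAG2 (2.65 FPKM, the highest). LMO 3 was the lowest for ZP3 (521 FPKM) and PAG12 (0.835 FPKM). LMO 5 was the one LMO sample in which FABP1 was not listed at 0 (0.223 FPKM), where any level above 0 would have stood apart. LSO 5 was the highest of LSO for PAG12 (2.21 FPKM) and DAZL (2.63 FPKM), inside the LMO range for both. LSO 1 was the highest for DESI1 (11.5 FPKM), LSO 2 for JAG2 (1.41 FPKM), and LSO 3 was the lowest for BMP15 (96.4 FPKM).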

How the results depend on the processing

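No alternative planned over all 10 samples gave a gene past limma's adjusted threshold between LMO and LSO. With each sample left out in turn the count was 0 to 1, and without LMO 5 and LSO 5 together, chosen after seeing the data, it was 1. The genes past the limits numbered 14 higher in LMO and 97 in LSO. With a pseudocount of 0.1 or 0.5 there were 36 and 23 higher in LMO, with array weights 67, and with the exact Wilcoxon test 5 and 16 higher in LSO. Leaving out 1 sample gave 3 to 59 higher in LMO and 31 to 187 in LSO, and leaving out LMO 5 and LSO 5 gave 37 and 151. Complete separation was found for 41 genes with no filter, for 3 above 1 FPKM in at least 5 samples, for 8 to 99 with 1 sample left out and for 106 without LMO 5 and LSO 5. The interaction gave 3 genes after adjustment with median-of-ratios factors, 0 to 145 with 1 sample left out and 28 without LMO 5 and LSO 5. The difference on the first principal component, 1.17, was -16.8 without LMO 2, -9.08 without LMO 3, -15.1 without LSO 4 and -7.58 without LSO 5, and ran from -16.8 to 15.8 over the samples left out. The cause of these shifts was not tested.

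Same-numbered LMO and LSO samples deviated from their group means with correlations of -0.05, 0.48, 0.77, 0.65 and 0.72, and LMO 1 and LMO 5 correlated best with another number, so the numbers were not taken to pair the samples. With the replicate number as a block, 27 genes were higher in LMO and 134 in LSO past the limits, 0 passed the adjusted threshold, and the interaction gave 344. FPKM without counts, 5 samples per group and unrecorded goats limit what could be detected.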
